A study of Homo sapiens with 8 samples.

Results

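The short arm of chromosome 9 (9p) was examined through its protein-coding genes, defined as those that start before position 47000000 of chromosome 9 on GRCh37. Of 229 genes so annotated, 221 had a row in the count table, out of 56632 rows and 19320 protein-coding rows in all. Among the 221 members, 34 had 0 counts in all 8 libraries, 59 stayed under 10 counts in each library, and 155 passed the filter on low counts and were tested.

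The RNA-seq data came from the M1-M4 breast cancer progression series, with 2 biological replicates per line. M1 is MCF10A, a spontaneously immortalized, non-tumorigenic mammary epithelial line. M2 (MCF10AT1k.cl2) is MCF10A carrying activated T24-HRAS and passed through xenografts, and M3 (MCF10Ca1h) and M4 (MCF10CA1a.cl1) are lines from carcinomas that grew from M2 xenografts. Of these, M4 is the more aggressive in mice. Each stage is a single line, so stage and line cannot be told apart. All lines grew as acini in Matrigel for 8 days in medium with 2% horse serum, hydrocortisone, cholera toxin and insulin. M1 and M2 received EGF at 10 ng/ml and M3 and M4 received none, so a difference of M3 or M4 from M1 cannot be told apart from that of the medium.

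Band 9p21 holds CDKN2A, which encodes the CDK4/6 inhibitor p16INK4a and, from a separate start, the MDM2 inhibitor p14ARF. Beside it lie CDKN2B, which encodes the CDK inhibitor p15INK4b, and MTAP, the methionine salvage enzyme that is often lost with them in tumors. The same band carries the type I interferon cluster, and band 9p24 carries JAK2 and both ligands of the PD-1 receptor, CD274 (PD-L1) and PDCD1LG2 (PD-L2). MCF10A is known as a line that lacks CDKN2A and CDKN2B.

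Library totals ran from 69669970 to 107350344 counts. Basal mammary epithelial markers were present throughout, with 8 genes summing to 8694 to 16220 CPM per library (counts scaled to the effective library total), and 11 markers of leukocytes, endothelium, fibroblasts, adipocytes and smooth muscle summed to 6.88 to 26.4 CPM, with 5 or 6 of the 11 at 0 in each line. Another source of the study exchanges the library labelled M1 replicate 2 with that labelled M2 replicate 1. By its values, the library labelled M2 replicate 1 was nearer to M2 replicate 2 than to M1 replicate 1 in 80.6% of the 155 tested members, and the library labelled M1 replicate 2 was nearer to M1 replicate 1 than to M2 replicate 2 in 53.5%. The labels were kept, and results are also given with the exchange.

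To show the starts of the 9p21 genes whose counts are described next, RefSeq sequences of 300 bases around each start are printed from GRCh38.p14, with each CG in capitals. CDKN2A has 2 entries, for its separate starts. In all, 176 of the 221 members matched this promoter table by symbol. The plus-strand MTAP window is chr9:21802386-21802685. The windows of the minus-strand genes are chr9:21995275-21995574 and chr9:21974808-21975107 for CDKN2A and chr9:22009256-22009555 for CDKN2B.
MTAP: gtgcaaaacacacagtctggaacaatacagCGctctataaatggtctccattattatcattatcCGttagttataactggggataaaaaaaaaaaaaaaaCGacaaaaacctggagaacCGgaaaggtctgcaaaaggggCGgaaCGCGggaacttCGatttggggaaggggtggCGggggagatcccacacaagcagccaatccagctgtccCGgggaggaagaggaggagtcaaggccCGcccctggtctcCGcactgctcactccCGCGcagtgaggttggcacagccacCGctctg
CDKN2A, upstream start: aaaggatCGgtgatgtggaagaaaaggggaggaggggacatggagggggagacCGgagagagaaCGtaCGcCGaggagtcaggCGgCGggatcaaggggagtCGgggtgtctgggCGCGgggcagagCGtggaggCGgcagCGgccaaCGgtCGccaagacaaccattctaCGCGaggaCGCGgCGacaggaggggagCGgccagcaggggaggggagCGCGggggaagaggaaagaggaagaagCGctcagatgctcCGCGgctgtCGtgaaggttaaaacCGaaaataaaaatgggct
CDKN2A, downstream start: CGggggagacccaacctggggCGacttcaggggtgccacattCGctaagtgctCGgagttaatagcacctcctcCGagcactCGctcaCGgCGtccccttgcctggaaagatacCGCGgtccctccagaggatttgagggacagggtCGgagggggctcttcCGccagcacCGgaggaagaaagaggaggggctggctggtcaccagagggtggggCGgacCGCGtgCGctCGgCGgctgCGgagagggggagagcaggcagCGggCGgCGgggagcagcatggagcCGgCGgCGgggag
CDKN2B: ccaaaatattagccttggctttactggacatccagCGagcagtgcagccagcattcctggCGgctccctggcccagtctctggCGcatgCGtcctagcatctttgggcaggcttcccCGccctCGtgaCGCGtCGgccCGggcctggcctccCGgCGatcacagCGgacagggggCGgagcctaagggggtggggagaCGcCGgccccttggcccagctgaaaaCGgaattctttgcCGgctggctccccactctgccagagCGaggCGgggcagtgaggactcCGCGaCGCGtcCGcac
The MTAP window holds 15 CG, the CDKN2A windows 28 and 26 and the CDKN2B window 25, against a median of 14 over 35116 promoters of the same length. Of these promoters, 51.1% hold fewer CG than MTAP, 73.8% fewer than the upstream CDKN2A window and 68% fewer than CDKN2B.

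CDKN2A (ENSG00000147889, chr9:21967751-21995300, GRCh37, minus strand) and CDKN2B (ENSG00000147883, chr9:22002902-22009304, minus strand) had 0 counts in all 8 libraries. So did the noncoding genes of the locus, CDKN2B-AS1 and CDKN2A-DT. A count of 0 allows up to 3 counts in a library, or 0.0264 to 0.0426 CPM at these depths, which covers counting error only. From the start of MTAP to the start of DMRTA1 the table held 13 rows, and 10 of them were at 0 everywhere. The other 3 were MTAP, the pseudogene UBA52P6 with a highest count of 1, and ENSG00000236921, which reached 48 and 54 counts in M4.

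MTAP (ENSG00000099810, chr9:21802635-21937650, GRCh37, plus strand) was the protein-coding gene of this interval with counts. It had 4 and 0 counts (M1), 4 and 13 (M2), 21 and 20 (M3) and 150 and 91 (M4). Both M4 libraries lay above all others, while M1 and M2 overlapped. M4 rose against M1 by 5.60 ± 1.09 on the log2 scale (SE, adjusted p = 0.00769), a fit that rests on 4 counts in M1, and the call was lost after the exchange of libraries (4.79, adjusted p = 0.056). M3 against M1 gave 3.28 ± 1.08 (adjusted p = 0.0665) and M4 against M3 gave 2.32 ± 0.87 (adjusted p = 0.105). The M4 level was 1.32 and 1.17 CPM, and counts per gene do not show which part of MTAP the reads came from. In these bulk samples fewer cells with a transcript and less RNA per cell cannot be told apart. Of its merged exons, 9.64% overlap another gene.

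Genes on both sides of the stretch from MTAP to CDKN2B had counts, with KLHL9 and FOCAD on the MTAP side far above DMRTA1 on the other. KLHL9, an adaptor of a ubiquitin ligase, lay at 31.8 and 43.0 CPM in M1 and 29.5 and 29.9 CPM in M4, and FOCAD at 42.5 and 53.5 CPM in M1 and 63.7 and 61.7 CPM in M4. Neither was called in any comparison. MIR31HG, the noncoding host gene of miR-31 just before MTAP, had 79 and 214 counts (M1), 455 and 257 (M2), 428 and 391 (M3) and 420 and 218 (M4), and was not called either. DMRTA1, the first coding gene after CDKN2B, had 1.80 and 0.87 CPM in M1 and 3.47 and 3.22 CPM in M4. Its call in M4 against M1 (1.33 ± 0.42, adjusted p = 0.0472) was lost in 10 of 15 alternatives, among them the exchange and the fits without M1 replicate 2 or any replicate of M2, M3 or M4.

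ELAVL2, a neuronal RNA-binding protein gene, had 1.57 and 1.67 CPM (M1), 1.68 and 1.85 (M2), 4.33 and 2.35 (M3) and 10.1 and 9.29 (M4). It rose by 2.58 ± 0.35 in M4 against M1 (adjusted p = 0.00181), also after the exchange (2.58, adjusted p = 0.0111). MLLT3, a reader of acylated histones, moved the other way, from 1094 and 1262 counts in M1 to 746 and 294 in M4 (-1.47 ± 0.27, adjusted p = 0.00629). HACD4, an enzyme of fatty acid elongation, stayed under 1 CPM in all libraries. Of the 6 coding neighbours, ELAVL2 and DMRTA1 were called higher and MLLT3 lower in M4 (backgrounds 9.48% and 11.2%), and none was called in M2 or M3 (backgrounds 3.37% and 13.5% in either direction).

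Of the 17 type I interferon genes, 11 were at 0 in every library and 2 were tested. IFNE, an interferon of epithelia, had 37 and 37 counts (M1), 110 and 96 (M2), 34 and 51 (M3) and 244 and 157 (M4). The M4 libraries lay highest and those of M1 and M3 overlapped. IFNE rose by 2.21 ± 0.38 in M4 against M1 (adjusted p = 0.0047) and by 2.03 ± 0.38 against M3 (adjusted p = 0.013), and both calls were lost after the exchange (1.44, adjusted p = 0.207 against M1), the latter also without M3 replicate 1 or M4 replicate 1. IFNB1, the interferon that many infected cells make, had 29 counts in M4 replicate 1 and 0 in replicate 2. IFNA1 reached 14 and 14 counts in M2 and was not called.

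At 9p24, both PD-1 ligand genes were highest in M4. CD274 had 0.99 and 1.07 CPM (M1), 1.36 and 1.59 (M2), 1.26 and 1.6 (M3) and 12.6 and 5.54 (M4). It rose by 3.13 ± 0.44 against M1 (adjusted p = 0.00215) and by 2.66 ± 0.43 against M3 (adjusted p = 0.00874), and stayed called in M4 against M1 under all 15 alternatives. PDCD1LG2 had 0.024 and 0.11 CPM (M1), 0.19 and 0.19 (M2), 1.43 and 0.39 (M3) and 8.49 and 3.91 (M4). It rose by 6.51 ± 0.93 in M4 against M1 (adjusted p = 0.00223) and by 3.73 ± 0.87 in M3 (adjusted p = 0.0214), the latter lost after the exchange, with only the 2 lines fitted, and without M1 replicate 1 or M3 replicate 1. In both genes M4 replicate 1 exceeded M4 replicate 2 by more than 2-fold, and all M4 values lay above those of M1-M3.

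JAK2, a cytokine receptor kinase gene, had 14 and 6.83 CPM in M1 and 12.2 and 11.4 in M4, and was not called (0.18 ± 0.34, adjusted p = 0.718). Of the 3 tested relaxin family genes, INSL4 was called lower in M3 (-2.59 ± 0.75, adjusted p = 0.0456), with 50 and 30 counts in M1 and 10 and 3 in M3. This call was lost in 9 of 15 alternatives, among them without either replicate of M1, M2 or M4 or without M3 replicate 2. The CD274 window is chr9:5450292-5450591 (GRCh38.p14, plus strand), shown with CG in capitals beside those of 9p21 because the gene was among those that rose most in M4.
CD274: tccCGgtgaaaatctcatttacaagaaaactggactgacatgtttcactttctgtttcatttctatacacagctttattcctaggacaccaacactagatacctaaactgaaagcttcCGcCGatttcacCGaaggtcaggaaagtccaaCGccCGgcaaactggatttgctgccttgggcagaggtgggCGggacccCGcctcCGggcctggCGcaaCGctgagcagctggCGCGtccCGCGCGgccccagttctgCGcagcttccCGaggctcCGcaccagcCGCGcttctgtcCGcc
It holds 22 CG, more than 62.3% of the promoters.

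RIGI, which encodes the cytosolic sensor of viral RNA and lies at 9p21.1, had 12.6 and 12.6 CPM (M1), 13.6 and 14.2 (M2), 15.1 and 17.8 (M3) and 80.5 and 34.1 (M4). It rose by 2.19 ± 0.36 in M4 against M1 (adjusted p = 0.00383, with 2.13 and an adjusted p of 0.0178 after the exchange) and by 1.80 ± 0.35 against M3 (adjusted p = 0.0156), the latter lost without either M3 replicate. DMRT1, a transcription factor of testis development, had 4 and 0 counts (M1), 10 and 6 (M2), 28 and 13 (M3) and 442 and 200 (M4). Its change in M4 against M1 was 6.98 ± 0.96 (adjusted p = 0.00192) and kept its call under all 15 alternatives, though its size rests on 4 counts in M1.

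**Figure D1:**
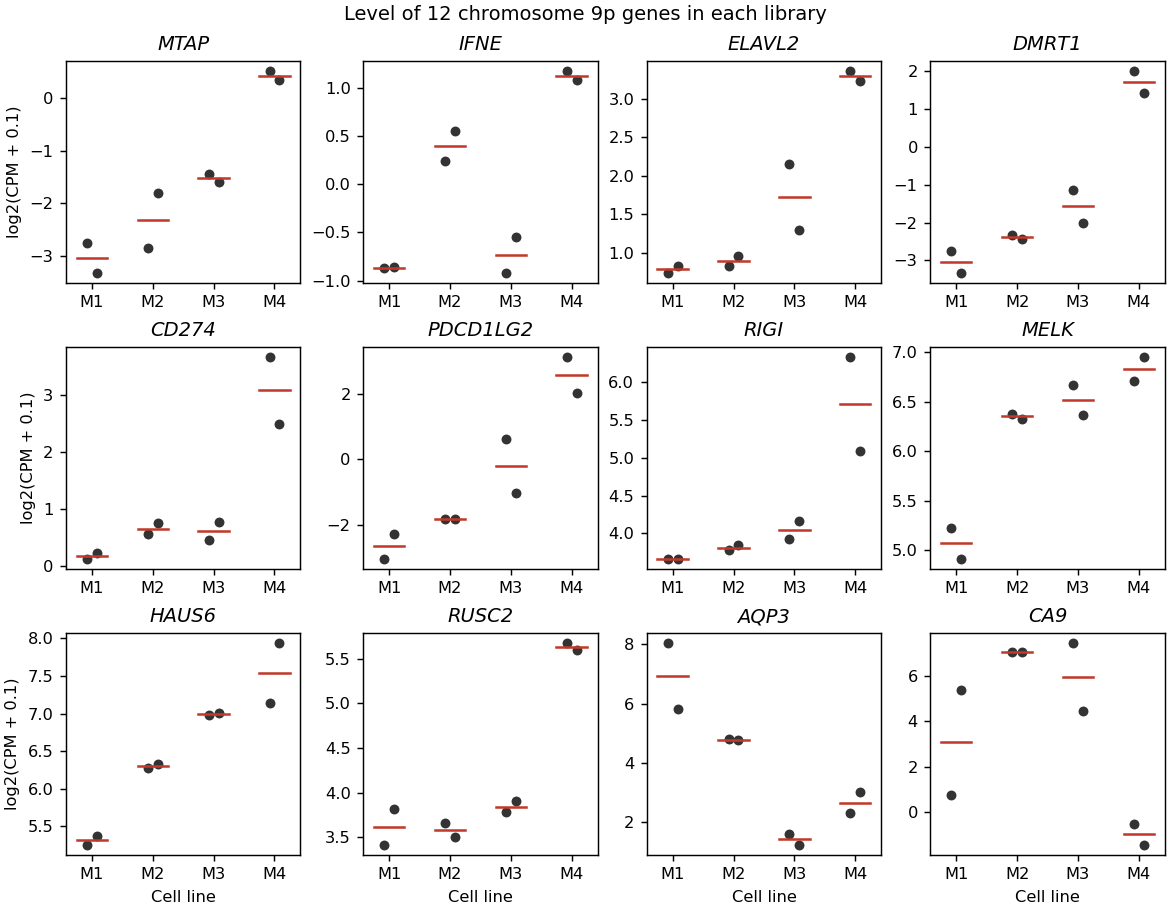
Level of 12 chromosome 9p genes in each library, as log2(CPM + 0.1) on separate vertical scales, with 2 points per cell line (M1 to M4) and a bar at their mean. MTAP, CD274, PDCD1LG2, RIGI and DMRT1 stand highest in both M4 libraries, and AQP3 falls from 264 and 56.2 CPM in M1 to 2.92 and 2.24 CPM in M3.

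Over the whole arm, the median log2 fold change of the 155 tested members was 0.15 in M2, 0.21 in M3 and 0.43 in M4 against M1. Relative to the other 13466 tested autosomal protein-coding genes, those of 9q among them, the shift was 0.17, 0.19 and 0.40. These 3 comparisons share the M1 libraries. In M4 against M1, 101 members (65.2%) had a positive change, against 51.2% of the other autosomal genes. Among 39 autosome arms 9p ranked 2nd in M4 after 3q (median 0.61) and before 10p (0.31), 2nd in M2 and 7th in M3. The long arm, 9q, had medians of 0.07, -0.07 and 0.14 in M2, M3 and M4 against M1. In M4 against M3 the median of 9q was 0.15 (ranked 4th) and that of 9p 0.12 (ranked 5th).

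**Figure D2:**
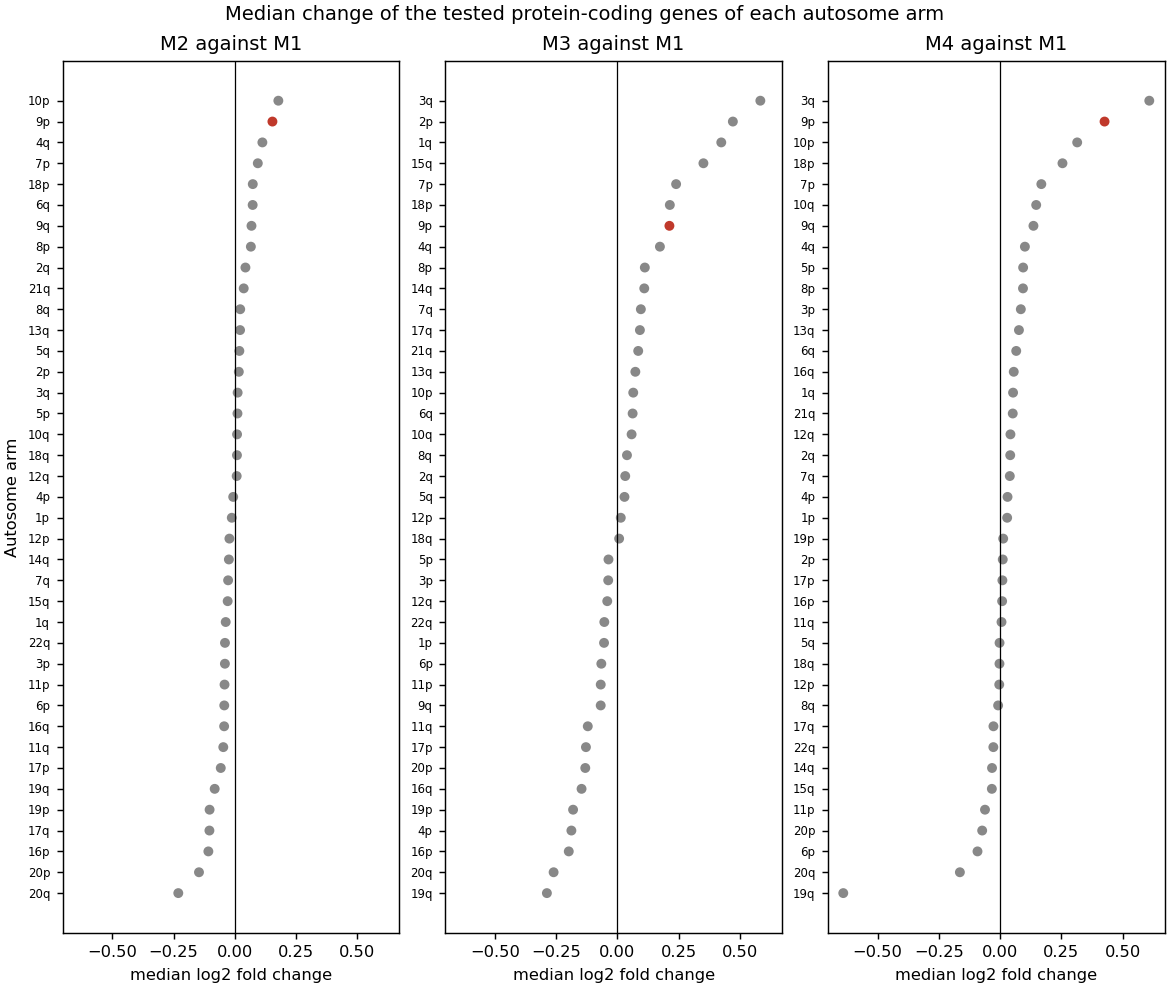
Median log2 fold change of the tested protein-coding genes of each of 39 autosome arms in M2, M3 and M4 against M1, ordered within each panel. Chromosome 9p, in red, lies 2nd in M2, 7th in M3 and 2nd in M4.

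Measured library by library from log2 CPM, relative to the mean of M1, the shift was -0.07 and 0.07 (M1), 0.16 and 0.15 (M2), 0.15 and 0.23 (M3) and 0.31 and 0.37 (M4), with a pooled replicate SD of 0.06. The M1 values mirror each other because they are taken relative to their mean. With the labels kept, no M1 library overlapped those of any other line, both M4 libraries lay above all others, and M2 and M3 overlapped. The library values were not recomputed for the exchange, which swaps the libraries at 0.07 and 0.16 between M1 and M2. From the fitted changes, the shifts after the exchange were 0.08 in M2, 0.10 in M3 and 0.26 in M4. Without M1 replicate 1 they were 0.105 in M3 and 0.26 in M4. M4 against M3 gave 0.16.

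**Figure D3:**
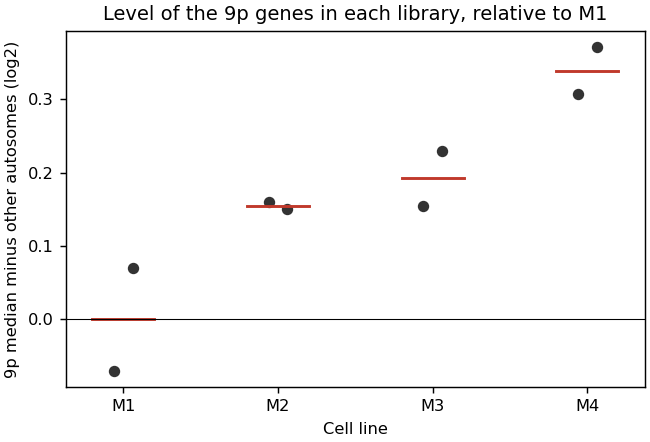
Median log2 level of the tested 9p genes minus that of other autosomal coding genes in each library, relative to M1, with a bar at the mean of 2 libraries. The M4 libraries, at 0.31 and 0.37, lie above the other 6.

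The members were split along the arm at bounds chosen with the data known. In M4 the medians were 0.45 in the first 10 Mb (35 tested), 0.56 from 10 to 20 Mb (16 tested), 0.38 from 20 to 30 Mb (17 tested), 0.34 from 30 to 36 Mb (57 tested) and 0.29 beyond (30 tested). In M3 they were 0.36 and 0.49 in the first 2 segments and -0.05, 0.17 and 0.06 after them. In M2 the 20 to 30 Mb segment had the highest median, 0.35, and the others lay between 0.07 and 0.20. Segments with under 20 tested genes are thinly filled.

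Gene by gene, a call required an adjusted p below 0.05 and more than a 2-fold change. In M2 against M1, 5 of 155 members were called (3.23%, background 3.37% of all genes tested), 4 higher (background 2.26%) and 1 lower (background 1.11%). In M3 21 were called (13.5%, background 13.5%), 14 higher (9.03%, background 8.02%) and 7 lower (4.52%, background 5.51%). In M4 39 were called (25.2%, background 20.7%), 25 higher (16.1%, background 9.48%) and 14 lower (9.03%, background 11.2%). In M4 against M3 17 were called (background 10.3%), 10 higher (6.45%, background 3.99%) and 7 lower (4.52%, background 6.3%). The M2 and M3 shares thus lay near those of all genes, and the higher share in M4 lay above it.

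Without a fold limit, 49 members were higher in M4 against M1 (31.6%, background 15.6%) and 20 lower (12.9%, background 15.8%). The same counts were 8 and 1 in M2 (backgrounds 3.37% and 1.46%), 27 and 8 in M3 (backgrounds 12.9% and 8.33%) and 20 and 12 in M4 against M3 (backgrounds 7.05% and 9.72%). Both M4 libraries lay above both of M1 in 87 members (56.1%, background 33.5%) and below in 33 (background 33.9%). For M2 these counts were 77 and 25 (backgrounds 30.4% and 30.6%), for M3 65 and 31 (backgrounds 30% and 29.4%), and for M4 against M3 63 and 39 (backgrounds 28.7% and 31.5%).

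After the exchange 17 members were called in M4 against M1, of which 16 were among the 39: ACER2, ATOSB, CD274, CREB3, DMRT1, ELAVL2, KIAA2026, PDCD1LG2, RIGI, RUSC2, SHB, UHRF2 and ZDHHC21 higher, and AQP3, MLLT3 and MOB3B lower. In M4 against M3, 6 of the 17 were called in both (CD274, CREB3, RIGI and RUSC2 higher, CNTNAP3B and DNAJB5 lower), and in M3 against M1 1 of 21 (LINGO2). In M2 against M1 DESeq2 called 9 members as labelled. After the exchange edgeR called 0 members in this comparison, with 2 at an unadjusted p under 0.05. It also called 0 without M2 replicate 1 or without M2 replicate 2, with 23 and 23 at an unadjusted p under 0.05, and 10 without M1 replicate 2. The M4 against M1 count was 24 without M4 replicate 2. The M4 against M3 count was 6 without either M4 replicate and 9 without M3 replicate 1 or either M2 replicate.

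**Figure D4:**
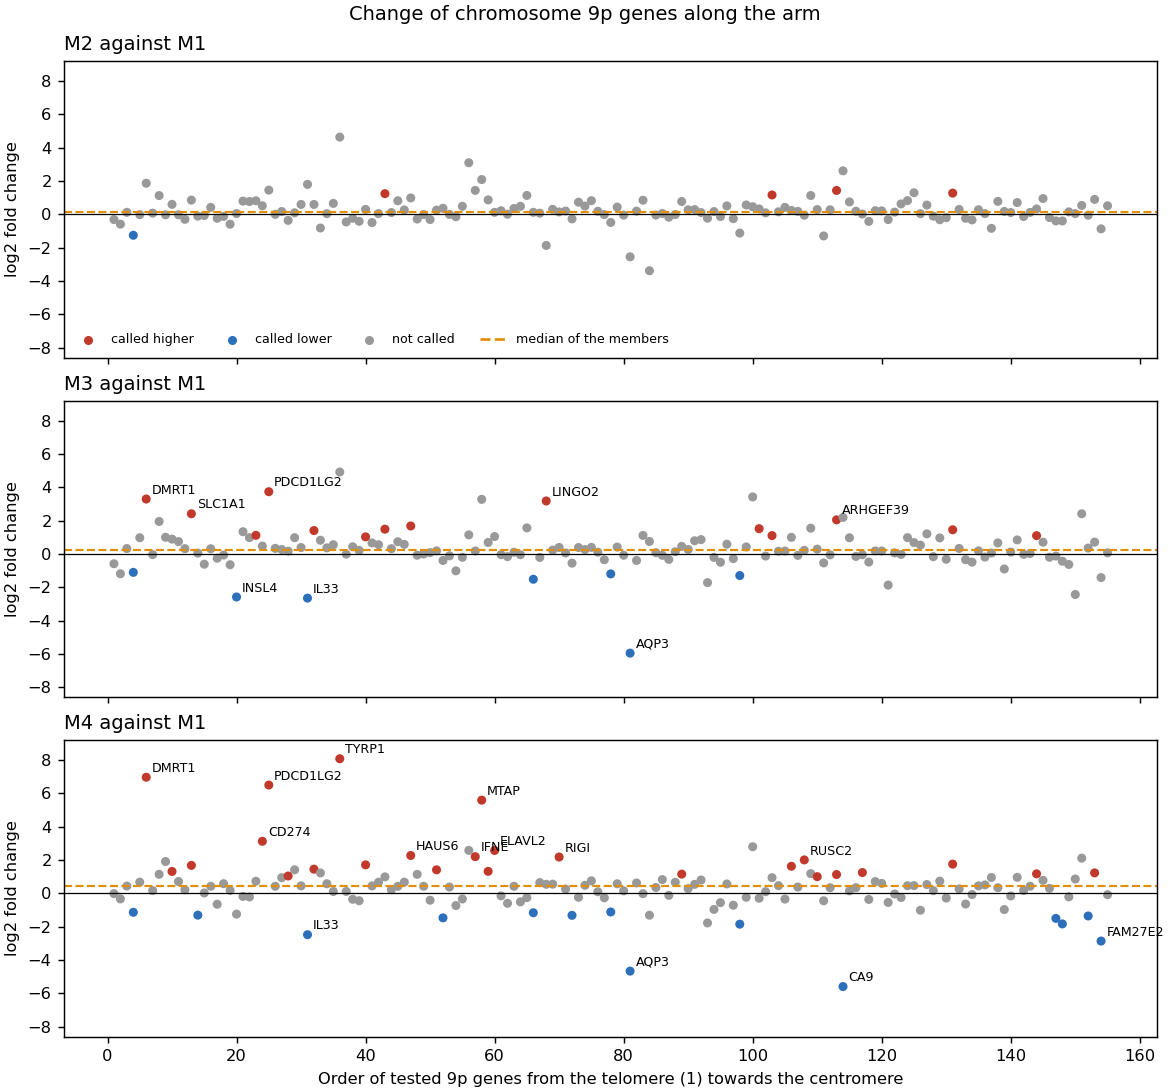
Log2 fold change of the 155 tested 9p genes in M2, M3 and M4 against M1, in order along the arm from the telomere, with calls in red (higher) and blue (lower), the median dashed, and called genes past 2 in size named. TYRP1, with 0 counts in M1, has a fitted value that depends on the prior count. In M4, 25 genes are red and 14 blue.

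Of all genes tested, the share called higher against M1 was 2.26% (M2), 8.02% (M3) and 9.48% (M4) and the share called lower 1.11%, 5.51% and 11.2%, and the counts of the following role groups stand beside these shares. The median log2 change of the other autosomal genes was -0.02 in M2, 0.03 in M3 and 0.02 in M4. A loose group of 6 tested genes was set under cell division and genome maintenance: MELK, HAUS6, FANCG, APTX, CDC37L1 and EXOSC3. Of these, 2 were called higher in M2 (median 0.85, background 2.26%), 3 in M3 (0.97, background 8.02%) and 2 in M4 (0.96, background 9.48%). None was called lower in these lines. None of the 6 was called in any of the 3 lines after the exchange. MELK, a mitotic kinase, had 37.4 and 30.1 CPM (M1), 82.9 and 80.5 (M2), 102 and 82.7 (M3) and 105 and 124 (M4). All libraries of the derived lines lay above M1, by 1.28 ± 0.17 in M2 (adjusted p = 0.00986), 1.45 ± 0.17 in M3 (adjusted p = 0.0019) and 1.76 ± 0.17 in M4 (adjusted p = 0.000542). After the exchange the M2 value was -0.12 and neither M3 nor M4 was called. HAUS6, of the augmin complex of the spindle, had 38.1 and 41.5 CPM (M1), 77.5 and 80.2 (M2), 126 and 128 (M3) and 141 and 245 (M4) (2.28 ± 0.24, adjusted p = 0.000725, with 1.74 and an adjusted p of 0.0511 after the exchange). FANCG, of the Fanconi anemia core complex, was called in M2 and M3 (1.16 ± 0.20 and 1.10 ± 0.20), and lost both calls without M1 replicate 1, as well as the M2 call without either M2 replicate and the M3 call without M3 replicate 1.

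Among 15 tested transcription and chromatin factors, 1, PSIP1, was called higher in M2 (background 2.26%), 3 in M3 (background 8.02%) and 3 in M4 (background 9.48%), and none lower. The median of the 15 was 0.45 in M4. PSIP1, a chromatin-bound coactivator, had 36.4 and 43.8 CPM (M1), 94.3 and 95.5 (M2), 105 and 119 (M3) and 74.2 and 85.5 (M4). It rose by 1.24 ± 0.15 in M2 (adjusted p = 0.00773) and 1.48 ± 0.15 in M3 (adjusted p = 0.0012). Both calls were lost after the exchange, that of M2 also without either M2 replicate. In M4 the change of PSIP1 was 0.99 ± 0.15 (adjusted p = 0.00295), just inside the 2-fold limit. UHRF2, a reader of modified DNA, rose by 1.4 ± 0.17 in M3 and 1.46 ± 0.17 in M4, the M3 call lost after the exchange. CREB3, a membrane-bound transcription factor of the secretory pathway, was highest in both M4 libraries, at 159 and 118 CPM against 48.1 to 64.6 CPM in the other 6 libraries (1.25 ± 0.21 against M1, adjusted p = 0.00417).

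Of 19 tested genes of metabolism and transport, 2 were called higher and 2 lower in M4 (backgrounds 9.48% and 11.2%), shares close to those of all genes, with a median of 0.43. AQP3, an aquaglyceroporin of epithelia, had 264 and 56.2 CPM (M1), 27.7 and 26.9 (M2), 2.92 and 2.24 (M3) and 4.81 and 7.85 (M4). It fell by 5.96 on the log2 scale in M3 (SE 0.76, adjusted p = 0.00295) and by 4.66 in M4 (SE 0.71, adjusted p = 0.00348). The M3 call was lost after the exchange and the M4 call was kept. CA9, the hypoxia-inducible carbonic anhydrase, had 1.59 and 41.7 CPM (M1), 132 and 133 (M2), 175 and 22.1 (M3) and 0.60 and 0.27 (M4). Its M1 replicates differ far more than those of most members, and the M4 call (-5.59 ± 1.66, adjusted p = 0.0394) was lost in 8 of 15 alternatives, among them without either replicate of M2 or M4 or without M1 replicate 2. Of its exons 35.7% overlap ARHGEF39 on the opposite strand, and whether counting used strand is not given. SLC1A1, a glutamate transporter, rose from 1.97 and 5.04 CPM in M1 to 19 and 18.3 in M3 (2.41 ± 0.41, adjusted p = 0.00704). This call was lost after the exchange.

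Of 10 tested genes of the cytoskeleton and adhesion, 2 were called higher and 3 lower in M4 (backgrounds 9.48% and 11.2%), with a median of 0.25. ARHGEF39 was called higher in all 3 lines, with 6.39 and 6.09 CPM in M1. It reached 16.2 and 17.5 in M2 (1.43 ± 0.22, adjusted p = 0.0134) and 30.1 and 21.4 in M3 (2.04 ± 0.22, adjusted p = 0.00139). Of its exons, 26.3% are shared with CA9. All 3 ARHGEF39 calls were lost after the exchange, that of M2 also without either M2 replicate and that of M4 without M4 replicate 2. DOCK8, a guanine exchange factor, fell in all 3, from 27.9 and 20.2 CPM in M1 to 10.3 and 9.89 (M2), 8.48 and 13.9 (M3) and 11.4 and 10.6 (M4). The changes were -1.26 ± 0.27, -1.11 ± 0.27 and -1.13 ± 0.27 (adjusted p = 0.0411, 0.0243 and 0.016). All 3 calls were lost without M1 replicate 1 and after the exchange. Those of M2 and M3 were also lost without either M2 replicate, and those of M2 and M4 without either M4 replicate. The M2 call was lost with the replicate block, and the M3 call without M3 replicate 1 or with only the 2 lines fitted. RECK, an inhibitor of matrix metalloproteinases, was lower in M4 than in M3 (-1.54 ± 0.33, adjusted p = 0.0217). It had 6.47 and 4.60 CPM in M3 and 2.28 and 1.52 in M4. RECK lost this call without M3 replicate 1, either M2 replicate or either M4 replicate, after the exchange, and with only the 2 lines fitted.

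Of 18 tested genes of membrane traffic and protein quality, 2 were called higher and 1 lower in M4 (backgrounds 9.48% and 11.2%), with a median of 0.57. RUSC2, a Rab-binding protein, had 10.6 to 14.9 CPM in the 6 libraries of M1-M3 and 51.0 and 48.3 in M4 (2.01 ± 0.18, adjusted p = 0.000401, with 2.10 and an adjusted p of 0.00349 after the exchange). BAG1, a cochaperone of HSP70, fell from 240 and 196 CPM in M1 to 105 and 96.8 in M4 (-1.11 ± 0.14, adjusted p = 0.00147), and was under 2-fold without M1 replicate 1 and after the exchange. DNAJB5, another cochaperone, was high in M3, with 14 and 10.1 CPM against 2.91 to 5.53 in the other 6 libraries. LINGO2, a neuronal leucine-rich repeat protein gene, was likewise highest in M3, with 604 and 565 counts against 16 to 137 in the other 6 libraries (3.18 ± 0.76 against M1, adjusted p = 0.0232), and 44.4% of its exons overlap another gene. This call was lost without either M3 replicate and with only the 2 lines fitted.

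Among cytokine genes and receptors, 3 were tested and 2 were called lower in both M3 (background 5.51%) and M4 (background 11.2%). IL33, an alarmin of epithelia, had 1.08 and 3.81 CPM (M1), 8.13 and 8.86 (M2), 0.43 and 0.34 (M3) and 0.38 and 0.50 (M4) (-2.48 ± 0.57 in M4, adjusted p = 0.015), so M2 stood highest, though not called against M1 (1.80 ± 0.54, adjusted p = 0.104). The M4 call was lost without either M4 replicate and the M3 call without either M3 replicate. Both were also lost after the exchange and with only the 2 lines fitted. IL11RA, the interleukin 11 receptor, fell to 2.84 and 2.08 CPM in M4 from 5.75 and 11.9 in M1 (-1.84 ± 0.39, adjusted p = 0.0105), and 32.8% of its exons lie in another annotated gene. Its M4 call was lost without M4 replicate 2 and after the exchange, and its M3 call (-1.30 ± 0.38, adjusted p = 0.0472) in 10 of 15 alternatives, among them without M1 replicate 2 or any replicate of M2, M3 or M4.

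The pathways of the 9p21 genes were examined outside the arm. Of 13 genes of methionine salvage and polyamine synthesis, 3 were called higher and 1 lower in M4 (backgrounds 9.48% and 11.2%), with a median of 0.23. MTAP itself is among the 3, with its 4 counts in M1. SMS, spermine synthase, rose by 1.42 ± 0.19 (adjusted p = 0.00168) and ODC1, ornithine decarboxylase, by 2.20 ± 0.41 (adjusted p = 0.00665), while ADI1, of the salvage cycle, fell by 1.12 (SE 0.21). The SMS and ODC1 calls were lost after the exchange, and that of ADI1 without M1 replicate 1 or M4 replicate 2. Of 18 tested genes of the INK4, CDK4/6 and RB pathway, 4 were called higher and 4 lower in M4 (backgrounds 9.48% and 11.2%), with a median of -0.07. MDM2 rose by 2.11 ± 0.18 and CCND1 (cyclin D1) by 1.18 ± 0.19. CDKN1A (p21) fell by 1.36 (SE 0.19) and CDKN2C (p18INK4c) by 1.18 (SE 0.25). The CDKN2C call was lost without M4 replicate 1 and with only the 2 lines fitted. CCND2 (cyclin D2) had 1074 and 816 counts in M3 and 0 in the other 6 libraries. Of 9 genes of interferon receptor signalling, 1, IRF7, was called higher in M4 against M1 (background 9.48%; 3.00 ± 0.57, adjusted p = 0.00717), and the median was 0.21. M4 replicate 1 stood above replicate 2 here, with 40.8 against 12.9 CPM for IRF7, 35.9 against 5.28 for IRF9 and 48.7 against 24 for STAT2. CD274, PDCD1LG2, RIGI and IFNB1 were also higher in that replicate. Fits that left out each M4 replicate in turn were among the 15 alternatives. Over these the M4 against M1 change ran from 2.43 to 3.62 (CD274), 5.82 to 7.92 (PDCD1LG2) and 1.44 to 2.70 (RIGI). The part of the difference between replicates in these changes was not tested otherwise, nor was its cause.

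Close to the centromere and near the telomere, some members share sequence with copies elsewhere, so reads may be shared among them. Of the tested members, 12 had over 50% of their 50-base words in annotated transcripts of another gene, and 11 started after 38 Mb. Among the 12 were WASHC1 (77.1%), FOXD4 (59%) and ZNG1A (50.9%) near the telomere, none of them called. CNTNAP3B and AL353791.1, with 86.3% and 88.1% of such words elsewhere, were called lower in M4 (-1.35 ± 0.34 and -1.83 ± 0.47), and CNTNAP3, with 43.3%, by -1.50 ± 0.29, so these values are uncertain as to the copy. All 3 calls were lost after the exchange. Those of CNTNAP3B and AL353791.1 were also lost without M1 replicate 2 or M4 replicate 2 and with only the 2 lines fitted. That of CNTNAP3B was lost without M4 replicate 1 as well.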

How the data were processed

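Poly A+ paired-end RNA-seq of M1-M4 acini, 2 replicates per line, was analysed. Per the labels, the authors trimmed reads with Trimmomatic, aligned them with STAR and counted them with RSEM on hg19/GRCh37, and Picard is also listed; versions and strand use are not given in the sources used here. The deposited values are expected counts per gene, not normalized, of which 12.8% are not whole numbers, and these were rounded. Totals ran from 69669970 to 107350344 per library, so a count of 0 allows up to 3 counts.

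Positions and gene classes came from GENCODE release 44 on GRCh37. All genes were fitted with the robust quasi-likelihood test of edgeR 4.0.16 (R 4.3.3), after filterByExpr and TMM, with a coefficient for each line over 8 libraries, Benjamini-Hochberg adjustment over 18431 genes and a call at adjusted p under 0.05 with a log2 change over 1. SEs derive from the F statistic. Errors rest on the spread between replicate cultures within lines, estimated over all lines together and moderated across genes. DESeq2 1.42.0, other filters and size factors, library exchange, a replicate block and leaving out each library were alternatives. Steps were tested on simulated data. Python 3.11.15 and matplotlib 3.10.9 served for the rest.

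Genes named were those from 20 to 25 Mb, up to 10 called per direction and comparison with at least 100 counts in each library of the higher line, and list members. Others named after seeing values are INSL4, UBA52P6, ENSG00000236921, TYRP1, ATOSB, KIAA2026, WASHC1 and ZNG1A. Members and lists were chosen with earlier results of these data known.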

Additional observations from a re-analysis of the deposited data

How the results depend on the processing

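Called members numbered 5 in M2 against M1 with the settings used, 9 with DESeq2 or with no minimum fold change, 12 with no filter on low counts and 0 after the library exchange. In M3 against M1 they were 21, then 35 with no minimum fold change, 12 with only the 2 lines fitted and 1 after the exchange. In M4 against M1 they were 39, then 69 and 17, and in M4 against M3 17, then 32 and 6, with no minimum fold change and after the exchange. Leaving out 1 library gave 0 to 10, 16 to 23, 24 to 39 and 6 to 18 calls in the 4 comparisons. The lowest M2 count came without either M2 replicate, the lowest M4 count without M4 replicate 2, and the lowest M4 against M3 count without either M4 replicate.

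The median shift after the exchange was 0.0818 in M2, 0.10 in M3 and 0.2631 in M4, and 0.1036 in M2 with no filter. Leaving out 1 library gave 0.1184 to 0.2024, 0.1050 to 0.2535, 0.2575 to 0.4152 and 0.1547 to 0.2091. After the exchange MELK turned to -0.1216 in M2 against M1. The causes were not tested. With the replicate block, calls were 4, 19, 36 and 15 and shifts 0.1637, 0.1943, 0.3950 and 0.1558. Deviations of same-numbered libraries correlated from -0.0244 to 0.122 over pairs of lines, highest for M3 and M4. A pairing or batch that does not follow the replicate numbers would not show in these values. With 2 libraries per line, genes with few counts, MTAP and the interferons among them, have large errors.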
